A study of Mus musculus with 26 samples.

Results

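The genes described here encode carriers that move amino acids and related small molecules across cell membranes, from 7 families of the solute carrier (SLC) nomenclature. They were chosen by name: every protein-coding gene whose symbol begins with Slc1a, Slc3a, Slc6a, Slc7a, Slc36a, Slc38a or Slc43a. This gave 64 of 40481 genes in each of the mouse count tables, which cover small intestinal spheroids and crypts, and 60 of 55093 genes in the count table of human Caco-2 cells. By upper-case symbol 59 of these were in both species. Slc6a20a, Slc6a20b, Slc6a21, Slc7a12 and Slc7a15 were in the mouse tables only, and SLC6A20 in the human table only. The prefixes also take in genes that are not carriers of proteinogenic amino acids, such as Slc6a4 (serotonin), Slc6a3 (dopamine), Slc6a6 (taurine), Slc6a8 (creatine) and SLC43A3 (nucleobases), and Slc7a6os, which is named only for lying opposite Slc7a6.

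Dietary protein is broken down at the brush border of enterocytes, and sodium-coupled carriers such as Slc6a19, with exchangers such as Slc7a9, take up the free amino acids. Heavy chains of the Slc3a family hold Slc7a light chains in the membrane: Slc3a1 pairs with Slc7a9 on the apical side, and Slc3a2 pairs with Slc7a5, Slc7a6, Slc7a7, Slc7a8 or Slc7a11. Dividing cells rely on carriers such as Slc1a5, Slc7a5, Slc7a1, Slc38a1 and Slc38a2, several of which are raised in amino acid shortage through the transcription factor ATF4, and Slc7a11 brings in the cystine from which glutathione is made.

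Fgfr1op (also called Cep43) encodes a centrosomal protein. The crypt samples were crypt-enriched preparations of mouse small intestine labelled Fgfr1op KO or WT, 6 libraries each, taken at days 6 and 9 after tamoxifen; the design text of the series gives 3 mice per group. In the crypt count table each library is marked by genotype and a number, without its day; both days were therefore pooled, and the numbers are names only. The spheroids, epithelial cultures in Matrigel with L-WRN conditioned medium, were labelled KO or WT, 4 mice each, at day 3 after 250 nM hydroxytamoxifen, with the same protocol on both genotypes' records. The sources used here do not give the promoter that drives the recombinase in these mice. Caco-2, a human colorectal adenocarcinoma line, carried a lentiviral hairpin induced by doxycycline, directed against Fgfr1op (shFgfr1op) or scrambled (scramble), with 3 samples of each taken at day 3 of doxycycline. Separate cultures are not mentioned in the labels, so p-values in Caco-2 measure only the spread between the samples, which may be technical.

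Fgfr1op itself was lower in the groups labelled for its loss, though in part of them only mildly. Its level as CPM, read counts scaled to a common library total, was 11.7 to 25.9 in KO crypts, against 25.2 to 39.0 in WT crypts, and KO library 4 lay above WT library 1 (log2 fold change −0.65 ± 0.19 SE, adjusted p = 0.0261). In spheroids it was 15.0 to 19.8 CPM in KO, against 21.7 to 24.4 CPM in WT, with no overlap and an adjusted p of 0.117. In Caco-2 it was 6.43 to 7.26 CPM in shFgfr1op cells, against 15.5 to 15.9 CPM in scramble cells (log2 fold change −1.20 ± 0.09 SE, adjusted p = 1.65e-14). Total counts per library were 48068740 to 88869286 in KO crypts and 49536700 to 103352863 in WT crypts, 51459939 to 63981065 in KO spheroids and 44152608 to 67630241 in WT spheroids, and 37281821 to 43876634 in shFgfr1op and 37989227 to 50965004 in scramble Caco-2. Crypt KO libraries 4, 5 and 6 stood apart: on the first principal component, which held 56.0% of the variance, they lay at 101.7 to 124.3, and the other 9 crypt libraries at −64.4 to 5.16. The crypt results of the carriers named are therefore given with and without them, an alternative chosen after seeing the data. Because the columns carry no day, this split of the KO libraries and the day after tamoxifen cannot be told apart. The fit without them sets the remaining KO libraries against the WT libraries of both days. Spheroid WT library 1 also lay apart from the other 7, at 46.6 against −32.4 to 15.1.

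The crypts held the larger changes. Of the 64 genes, 43 had enough counts to be tested in crypts, and 19 of these (44.2%) passed an adjusted p of 0.05, 9 higher and 10 lower in KO. The same rule called 24.5% of the 16413 genes tested, 14.0% higher and 10.5% lower. The groups did not overlap for 13 of the 43 genes (30.2%), against 10.6% of all genes. The median log2 fold change was −0.36 over the 43 genes and 0.05 over all genes tested. Without KO libraries 4, 5 and 6 there were 8 calls among 47 genes tested (17.0%), 3 higher and 5 lower, against 5.46% of all 16924 genes. Passing members were not all carriers of high level, since several of the lower genes had under 5 CPM. Of the 21 genes not tested, Slc7a3, described further on, reached 3.43 CPM and the others at most 0.37 CPM in any library.

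Of the 9 genes that rose, 3 were called with and without KO libraries 4, 5 and 6. Slc7a5, the light chain that exchanges large neutral amino acids such as leucine, had 10.2, 13.9 and 15.5 CPM in KO crypts and 3.91, 4.69 and 6.18 CPM in WT crypts (lowest, median and highest library). The gene lies at chr8:121881150-121907694 on the minus strand (mm10). Every KO library was above every WT library, and the log2 fold change was 1.46 ± 0.16 SE (adjusted p = 0.00085). Without KO libraries 4, 5 and 6 it was 1.33 ± 0.21 (adjusted p = 0.00326). Slc7a1, a carrier of arginine and lysine, had 39.9, 56.7 and 64.6 CPM in KO and 25.3, 29.9 and 38.8 CPM in WT, again with no overlap (log2 fold change 0.82 ± 0.15, adjusted p = 0.00292; 0.65 ± 0.18 and 0.0461 without the 3 KO libraries). Slc1a4, an exchanger of alanine, serine and cysteine, had 4.49, 10.7 and 21.8 CPM in KO and 1.45, 2.66 and 3.39 CPM in WT, a log2 fold change of 2.22 ± 0.40 (adjusted p = 0.00329) that was 1.19 ± 0.29 (adjusted p = 0.0311) without them. All 3 genes were also higher without overlap.

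**Figure D1:**
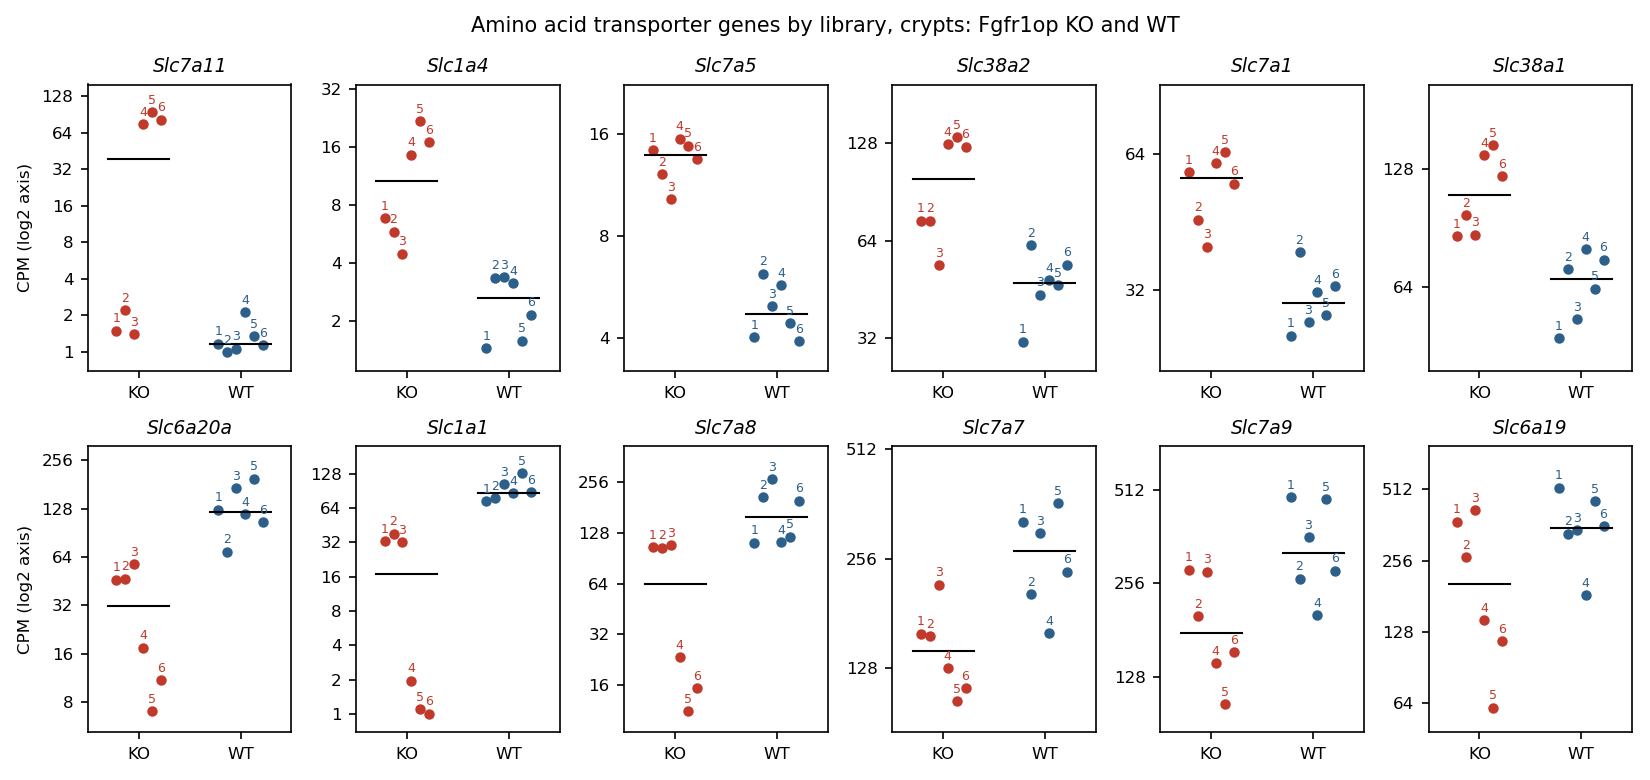
CPM on log2 axes of 12 carrier genes in 6 KO and 6 WT crypt libraries; each point is a library with its running number, and the line is the group median. In the upper row Slc7a5, Slc7a1, Slc1a4 and Slc38a1 lie higher in every KO library, and Slc7a11 stands far above WT in KO libraries 4, 5 and 6; in the lower row the 6 genes lie lowest in those same libraries.

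The other 6 rises were not called without KO libraries 4, 5 and 6, a fit that held 3 KO libraries. Slc7a11, the cystine and glutamate exchanger, had 74.8, 94.0 and 81.5 CPM in those libraries and 1.49, 2.20 and 1.40 CPM in KO libraries 1, 2 and 3, against 0.998 to 2.11 CPM in WT. KO libraries 1 and 3 lay within the WT range, and no KO library was near the KO median of 38.5 CPM. The log2 fold change was 5.03 ± 1.14 (adjusted p = 0.00964) with all libraries and 0.39 ± 0.30 (adjusted p = 0.462) without the 3. Slc38a2, a sodium-coupled carrier of small neutral amino acids including glutamine, had 127, 133 and 124 CPM in KO libraries 4, 5 and 6 and 53.8 to 73.7 CPM in the other KO libraries, against 31.2, 47.5 and 62.0 CPM in WT (1.03 ± 0.23, adjusted p = 0.0075; 0.49 ± 0.20 and 0.147 without them). Slc38a1, a carrier of the same kind, had 86.2, 110.2 and 147 CPM in KO and 47.4, 67.3 and 80.0 CPM in WT, with no overlap (0.80 ± 0.18, adjusted p = 0.00698; 0.48 ± 0.18 and 0.125 without them). Slc7a6, a light chain that exchanges cationic for neutral amino acids, had 10.8, 16.5 and 27.7 CPM in KO and 5.97, 10.1 and 12.01 CPM in WT (0.89 ± 0.23, adjusted p = 0.0148; 0.53 ± 0.24 and 0.202 without them).

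Slc1a5, the exchanger best known for glutamine, had 30.8, 41.4 and 56.4 CPM in KO crypts and 22.7, 27.8 and 40.0 CPM in WT crypts, so the groups overlapped. Its log2 fold change of 0.57 ± 0.18 (adjusted p = 0.0305) was 0.28 ± 0.19 (adjusted p = 0.407) without KO libraries 4, 5 and 6, and the call was lost in 8 of 12 fits that left out 1 library (KO 4, KO 5, KO 6, WT 1, WT 2, WT 3, WT 5 or WT 6; 0.47 to 0.66 over the 12). Slc7a6os, not a carrier, had 3.60 to 8.35 CPM in KO and 2.76 to 4.37 CPM in WT (0.75 ± 0.22, adjusted p = 0.0246; 0.65 ± 0.27 and 0.156 without the 3 libraries), and lost its call without KO 5, WT 1, WT 5 or WT 6. Slc3a2, the heavy chain shared by Slc7a5, Slc7a6 and Slc7a11, had 42.0, 94.3 and 116 CPM in KO and 30.8, 59.7 and 89.6 CPM in WT, and its log2 fold change of 0.46 ± 0.29 was not called (adjusted p = 0.268; 0.13 ± 0.35 and 0.86 without the 3 libraries). Some further genes, named here after their values were seen, had high values in KO libraries 4, 5 and 6. Slc6a9, a glycine carrier, had 10.1, 14.3 and 11.1 CPM there and 1.05 to 2.13 CPM in the other KO libraries, against 1.30 to 4.04 CPM in WT (1.40 ± 0.63, adjusted p = 0.122). Its sign turned without the 3 libraries (−0.75 ± 0.37, adjusted p = 0.238), and 27.8% of its exon bases overlap Ccdc24 on the opposite strand. Slc7a3, a further carrier of cationic amino acids, had 3.35, 3.43 and 3.04 CPM there and 0.0635 to 0.173 CPM in the other KO libraries, against 0.0377 to 0.237 CPM in WT. It fell under the filter on low counts; with no filter edgeR called it higher.

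The genes Slc7a11 and Slc1a4, which had the largest rises, and Slc7a7, which was lower in KO crypts, each carry in the promoter a sequence of the form TGATGNAA on either strand, the core of the composite C/EBP and ATF element through which ATF4 is known to act. Promoters were the 250 bases before and 50 bases from the RefSeq start site on (GRCm38.p6), and 46 of the 64 genes had an entry. The form was found in 4 of the 46 (8.7%), the fourth being Slc6a21, against 4.51% of 27025 genes with an entry. Among genes tested in crypts the share was 2.81% of 11033, which is not a like set. The 46 include genes not tested in crypts, Slc6a21 among them. The form was in 2 of 6 members called higher that had an entry, against 2.23% of all genes called higher. For members called lower it was 1 of 7, against 2.51% of all called lower. A match describes letters and is not a shown binding site. The 170 bases from 150 before to 20 after the start are printed for these 3 genes, all on the minus strand, with matches in capitals; Slc7a11 lies at chr3:50443594-50443763, Slc1a4 at chr11:20332694-20332863 and Slc7a7 at chr14:54417925-54418094.
Slc7a11: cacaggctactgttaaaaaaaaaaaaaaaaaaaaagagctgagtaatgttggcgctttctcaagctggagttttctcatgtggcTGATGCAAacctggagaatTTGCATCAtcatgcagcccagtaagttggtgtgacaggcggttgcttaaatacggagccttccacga
Slc1a4: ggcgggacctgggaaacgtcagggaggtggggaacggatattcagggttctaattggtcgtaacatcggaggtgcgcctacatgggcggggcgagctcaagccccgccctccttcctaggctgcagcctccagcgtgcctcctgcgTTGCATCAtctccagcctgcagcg
Slc7a7: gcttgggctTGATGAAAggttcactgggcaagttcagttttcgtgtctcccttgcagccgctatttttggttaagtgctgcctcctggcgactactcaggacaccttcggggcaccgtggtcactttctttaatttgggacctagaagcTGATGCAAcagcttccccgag
In Slc7a11, high in KO libraries 4, 5 and 6, both matches lie close before the start, from −66 to −59 and from −47 to −40. In Slc1a4, high in every KO library, the match spans the start site itself, from −4 to 4. Slc7a7, the gene that was lower, has matches from −141 to −134 and from −1 to 7, so a match was found in genes of either direction.

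Of the 10 genes that fell, Slc1a2 and Slc38a4 had the largest log2 fold changes, at trace level. Their values are given further on. Slc6a20a, a carrier of proline and other imino acids, had 7.004, 31.9 and 57.7 CPM in KO crypts and 69.4, 122 and 197 CPM in WT crypts. No KO library reached a WT library, and the log2 fold change was −2.08 ± 0.50 (adjusted p = 0.0121), or −1.38 ± 0.28 (adjusted p = 0.0136) without KO libraries 4, 5 and 6. Its neighbour Slc6a20b had 0.454, 0.683 and 1.90 CPM in KO and 2.00, 3.39 and 5.11 CPM in WT (−1.84 ± 0.40, adjusted p = 0.00639; −1.28 ± 0.37 and 0.0558 without them). The transcripts of these 2 genes share 631 stretches of 50 bases, 15.3% of those in Slc6a20a and 7.24% of those in Slc6a20b, so reads could be split between them and the low values of Slc6a20b are uncertain. Opposite-strand genes also overlap 13.8% of the exon bases of Slc6a20a (Gm17120) and 21.1% of those of Slc6a20b (Sacm1l). Slc7a7, the basolateral light chain for cationic amino acids, had 103, 142 and 217 CPM in KO and 159, 268 and 364 CPM in WT (−0.86 ± 0.22, adjusted p = 0.014; −0.57 ± 0.24 and 0.166 without them). Slc7a9, the apical light chain for cystine and cationic amino acids, had 105, 177 and 283 CPM in KO and 202, 321 and 485 CPM in WT. It passed at −0.83 ± 0.27 (adjusted p = 0.0411), was at −0.44 ± 0.26 (adjusted p = 0.336) without the 3 libraries, and lost its call in 8 of 12 fits without 1 library (KO 2, KO 4, KO 5, KO 6, WT 1, WT 3, WT 5 or WT 6; −0.999 to −0.703 over the 12).

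Other carriers known from the intestine were not called, and some of them were low in the 3 libraries. Slc6a19, the main apical carrier of neutral amino acids, had 143, 60.9 and 117 CPM in KO libraries 4, 5 and 6 and 265 to 418 CPM in the other KO libraries, against 183, 350.4 and 521 CPM in WT. Its log2 fold change was −0.67 ± 0.42 (adjusted p = 0.262), and −0.05 ± 0.26 without the 3 libraries. Slc3a1, the heavy chain of Slc7a9, had 63.2, 108 and 157 CPM in KO and 65.9, 129.8 and 143 CPM in WT (−0.13 ± 0.21, adjusted p = 0.683; 0.05 ± 0.23 without them). It overlapped between the 3 libraries and the other KO libraries. Of its exon bases 26.5% overlap Prepl on the opposite strand. Slc36a1, the proton-coupled carrier of glycine and proline, had 2.27 to 3.20 CPM in the 3 libraries and 16.2 to 30.6 CPM in the other KO libraries, against 15.6, 28.5 and 44.7 CPM in WT (−1.24 ± 0.61, adjusted p = 0.158; −0.41 ± 0.31 and 0.45 without them). Slc43a2, a carrier of large neutral amino acids, had 13.7 to 21.2 CPM in the 3 libraries and 65.8 to 141 CPM in the others, against 47.7, 95.4 and 116 CPM in WT (−0.69 ± 0.52, adjusted p = 0.352; 0.06 ± 0.27 without them). Slc7a15, an Slc7 member of the mouse named after its values were seen, had 0.829 to 1.72 CPM in the 3 libraries and 23.4 to 54.9 CPM in the other KO libraries, against 27.3, 43.4 and 92.1 CPM in WT (−1.23 ± 0.93, adjusted p = 0.356; −0.27 ± 0.37 and 0.708 without them). Slc6a8, the creatine carrier, had 30.1, 84.9 and 268 CPM in KO and 78.1, 113 and 185 CPM in WT (−0.21 ± 0.45; 0.41 ± 0.33 without them). Slc6a6, the taurine carrier, had 117, 147 and 186 CPM in KO and 98.4, 112 and 185 CPM in WT (0.22 ± 0.17; 0.19 ± 0.22 without them). For Slc6a6 the 3 libraries lay inside the range of the other KO libraries. Slc6a14, a carrier of neutral and cationic amino acids, had 1.68 to 4.21 CPM in the 3 libraries and 0.0657 to 0.614 CPM in the other KO libraries, against 0.409, 0.593 and 1.17 CPM in WT; neither fit called it, and its sign turned (1.32 ± 0.76 with all libraries, −1.22 ± 0.58 without the 3).

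Of the acidic amino acid carriers of the Slc1 family, Slc1a1, Slc1a2 and Slc1a3 could be tested with all libraries. Each had lower values in every KO library than in any WT library. Slc1a6 and Slc1a7 were too low to be tested with all libraries. Slc1a1, the epithelial glutamate and aspartate carrier at chr19:28835049-28913960 on the plus strand, had 32.8, 38.1 and 32.0 CPM in KO libraries 1, 2 and 3 and 1.95, 1.10 and 1.00 CPM in KO libraries 4, 5 and 6, against 73.8, 87.5 and 131 CPM in WT. With all libraries the log2 fold change was −2.39 ± 0.87 and was not called (adjusted p = 0.0629), although the groups did not overlap. Without the 3 libraries it was −1.45 ± 0.20 and was called (adjusted p = 0.00139). Of its exon bases 31.9% overlap the opposite-strand gene 4430402I18Rik, and the sources used here do not give whether reads were counted by strand. Slc1a3, a glutamate carrier known from glia and named after its values were seen, had 8.12 to 13.0 CPM in KO libraries 1, 2 and 3 and 0.565 to 1.08 CPM in KO libraries 4, 5 and 6, against 19.5, 24.0 and 31.5 CPM in WT (−2.05 ± 0.74, adjusted p = 0.0617; −1.14 ± 0.23 and 0.0124 without the 3). Slc1a2, the third of these, was at trace level with 0.0435, 0.228 and 0.441 CPM in KO and 0.710, 1.27 and 2.39 CPM in WT, and was called in both fits (−2.60 ± 0.49, adjusted p = 0.00379; −2.01 ± 0.44 and 0.0183). Slc6a4, the serotonin carrier of enterocytes, also named after its values were seen, had 80.6 to 128 CPM in KO libraries 1, 2 and 3 and 5.66 to 16.1 CPM in KO libraries 4, 5 and 6, against 154, 184 and 258 CPM in WT. It was not called with all libraries (−1.88 ± 0.66, adjusted p = 0.0573) and was called without the 3 (−1.02 ± 0.21, adjusted p = 0.0158). Slc7a8, a basolateral light chain for neutral amino acids, had 11.2 to 23.3 CPM in the 3 libraries and 105 to 109 CPM in the other KO libraries, against 112, 161 and 267 CPM in WT, and was called in neither fit (−1.47 ± 0.58, adjusted p = 0.0813; −0.68 ± 0.27 and 0.151).

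**Figure D2:**
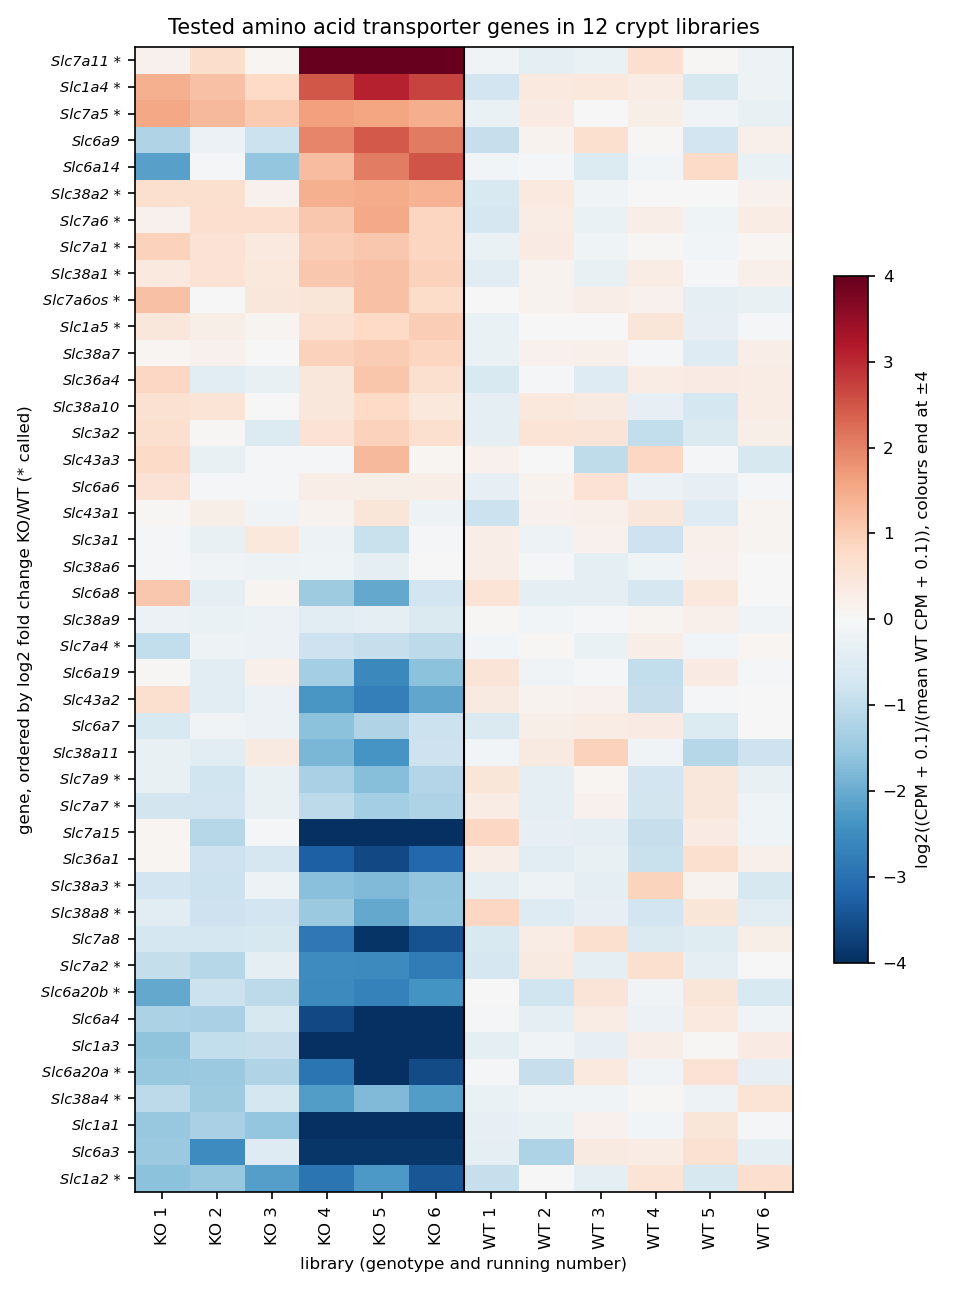
Level of each of the 43 tested genes in each crypt library relative to the mean of the 6 WT libraries, as log2 of CPM + 0.1, with genes ordered by log2 fold change and the 19 called genes starred; colours end at ±4. KO libraries 4, 5 and 6 hold the extremes at both ends, while Slc7a5, Slc7a1 and Slc1a4 are above the WT mean and Slc6a20a, Slc1a1 and Slc1a2 below it in all 6 KO libraries.

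The remaining falls were in genes of low level. Slc7a4, an orphan relative of the cationic carriers and the exception in level, had 26.8, 29.8 and 47.7 CPM in KO crypts and 45.9, 54.3 and 66.3 CPM in WT crypts (−0.66 ± 0.17, adjusted p = 0.0145; −0.43 ± 0.19 and 0.20 without the 3 libraries). It was named after its values were seen, and 13.3% of its exon bases overlap P2rx6 on the opposite strand. Slc7a2, a cationic carrier, had 0.304, 0.777 and 2.03 CPM in KO and 1.66, 2.36 and 4.26 CPM in WT (−1.53 ± 0.46, adjusted p = 0.0269; −0.83 ± 0.33 and 0.145 without the 3), and lost its call without KO 4, KO 5 or WT 4. Slc38a4 had 0 to 0.19 CPM in KO, with 2 libraries at 0, and 0.296 to 0.591 CPM in WT (−2.34 ± 0.68, adjusted p = 0.0232; −1.48 ± 0.48 and 0.0806 without the 3), and lost its call without WT 6. Slc38a8 and Slc38a3 had highest values of 0.329 and 0.603 CPM in KO and of 0.918 and 1.43 CPM in WT; they passed at adjusted p-values of 0.0446 and 0.047 and lost the call in 8 and 9 of the 12 fits without 1 library. For Slc38a8 these were the fits without KO 2, KO 4, KO 5, KO 6, WT 1, WT 3, WT 5 or WT 6. For Slc38a3 they were those without KO 2, KO 4, KO 5, KO 6, WT 1, WT 2, WT 3, WT 4 or WT 5. Without KO libraries 4, 5 and 6, Slc38a8 was at −0.83 ± 0.49 and Slc38a3 at −0.68 ± 0.43, and none of these 5 genes was called. Over all genes tested, 14.0% were called higher and 10.5% lower. By role, the neutral exchangers of Slc1 held 2 higher of 2 tested (Slc1a5 not without the 3 libraries), the light chains 3 higher and 2 lower of 7, and the sodium-coupled neutral carriers of Slc6 2 lower of 4.

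Summed levels of several sets of cell type markers also differed between the crypt libraries. Summed over 12 enterocyte markers (among them Alpi, Fabp1, Sis and Vil1), KO crypts ran from 4184 to 33716 CPM and WT crypts from 16768 to 40685 CPM, and KO libraries 4, 5 and 6 held 8999, 4184 and 7712 CPM. Over 8 stem cell markers (among them Lgr5, Olfm4 and Ascl2) the sums were 114 to 1101 CPM in KO and 974 to 2252 CPM in WT, with 127, 147 and 114 CPM in the 3 libraries. Over 8 Paneth cell markers they were 7883 to 55005 CPM in KO and 36448 to 90996 CPM in WT, with 7883 to 12866 CPM in the 3 libraries. Goblet cell markers ran from 5458 to 7885 CPM in KO and from 7215 to 11580 CPM in WT. Leukocyte markers ran from 145 to 309 CPM in KO and from 274 to 511 CPM in WT. Of the single markers, 1 of 12 enterocyte, 0 of 8 stem cell and 0 of 8 Paneth cell genes passed the edgeR test. Of the tuft cell markers 3 of 5 tested were lower (1 of 6 without the 3 libraries), and of the enteroendocrine markers 1 of 8 was lower. Of the goblet cell markers 1 of 7 was higher, and of the leukocyte markers 1 of 12. Over all genes tested, 24.5% were called, 14.0% higher and 10.5% lower, and without the 3 libraries 5.46% were called. Tuft cell markers summed to 20.3 to 51.5 CPM in KO and 33.2 to 61.3 CPM in WT, and enteroendocrine markers to 168 to 502 CPM in KO and 299 to 572 CPM in WT. The sums of enterocyte, stem cell and Paneth cell markers were thus all lowest in KO libraries 4, 5 and 6. Slc6a19, Slc36a1, Slc43a2, Slc7a15 and Slc7a8 were lowest in the same libraries. The part of any of these markers in the results was not tested. In bulk samples, fewer cells of a type and less RNA per cell cannot be told apart.

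The genes around the carriers were read from lists that had been chosen with results of these data known. Of 28 tested genes in or upstream of the amino acid response through ATF4, 17 were higher and 3 lower in KO crypts. That is 71.4% called, against 24.5% of all genes. The median log2 fold change was 1.15 (0.05 over all genes). Sesn2, which restrains mTORC1 when leucine is short, averaged 8.48 ± 1.68 CPM in KO crypts and 3.71 ± 0.282 CPM in WT crypts (± SD over 6 libraries; log2 fold change 1.19 ± 0.16 SE, adjusted p = 0.00118). Phgdh and Psat1, enzymes of serine synthesis, averaged 116 ± 41.1 and 134 ± 68.6 CPM in KO and 31.5 ± 12.3 and 35.1 ± 6.46 CPM in WT (1.88 ± 0.30 and 1.94 ± 0.32). Without KO libraries 4, 5 and 6 the list held 6 higher and 2 lower of 28 tested, with a median of 0.43. In that fit 5.46% of all 16924 genes were called, and their median was 0.03. A further list held 11 genes around glutathione (its synthesis, reduction, use, breakdown and regulation), leaving out Slc7a11. Of these 11 genes 5 were higher and 0 lower (45.5% called), a count that was 2 higher without the 3 libraries. They included Oplah at 11.2 ± 4.48 CPM in KO and 3.85 ± 1.10 CPM in WT, Gsr at 151 ± 41.7 CPM in KO and 78.2 ± 11.9 CPM in WT, and Gss, glutathione synthetase, at 575 ± 248.9 CPM in KO and 245 ± 17.8 CPM in WT. Of 15 peptidases that release amino acids, 1 was lower (Dpp4, 268 ± 183 CPM in KO and 698 ± 227 CPM in WT, adjusted p = 0.0427), 0 were higher (6.67% called), and the median was −1.15; Pepd and Lap3 missed at adjusted p-values of 0.061 and 0.0667. Without the 3 libraries 0 passed in the edgeR fit and the median was −0.42. Of 32 genes of amino acid sensing by mTORC1, 6 were higher and 4 lower, a share of 31.2% against 24.5% over all genes. Among them were Sesn3 (1.07 ± 0.24) and Rheb (0.68 ± 0.18) higher and Nprl2 (−0.63 ± 0.16) lower, with a median of 0.08. Of 17 partners and further carriers, 2 were higher and 3 lower, a share of 29.4%. Pqlc2, a lysosomal carrier of cationic amino acids, was higher (0.66 ± 0.16). Ctns, the lysosomal cystine carrier, was lower (−0.97 ± 0.19), and so was Slc25a44, which encodes a mitochondrial carrier (−0.52 ± 0.13). Without the 3 libraries the mTORC1 list held 0 calls in edgeR and the partners 0 higher and 1 lower.

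Levels between genes were compared per kilobase of exon within a table. In crypts the highest carriers included Slc7a9, Slc7a7, Slc6a19 and Slc3a1: Slc7a9 averaged 72.5 CPM per kb in KO and 129 in WT, Slc6a19 45.9 in KO and 73.0 in WT, Slc3a1 47.5 in KO and 52.1 in WT, and Slc7a7 44.0 in KO and 79.8 in WT. In spheroids the highest were others: Slc3a2 averaged 108 CPM per kb in KO and 115 in WT, Slc7a5 85.0 in KO and 96.6 in WT, Slc1a5 36.4 in KO and 48.8 in WT, Slc6a6 37.4 in KO and 35.1 in WT, and Slc1a4 35.95 in KO and 43.1 in WT. The tables were normalized separately, so the order holds within each and no test was made between them. Slc7a11, near 1 CPM in WT crypts, was at 243 to 342 CPM in KO spheroids and 195 to 307 CPM in WT spheroids, and Slc6a19, a highly expressed gene in WT crypts, averaged 0.184 CPM in KO spheroids and 0.122 CPM in WT spheroids. The spheroids expressed enterocyte markers at sums of 568 to 982 CPM in KO and 609 to 1165 CPM in WT, and stem cell markers at 798 to 899 CPM in KO and 855 to 911 CPM in WT.

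In spheroids no carrier gene passed the threshold. Of 34 genes tested, edgeR called 0 (0.232% of 15915 genes were called, 0.189% higher and 0.044% lower, and 0.0566% with a change of 1 or more on the log2 scale), 7 had an unadjusted p below 0.05 (20.6%, against 14.6% of all genes), and the groups did not overlap for 6 (17.6%, against 8.56%). The sixth and only one higher in KO was Slc1a2, at trace level. DESeq2 called 5, all lower in KO: Slc1a1, Slc7a8, Slc38a1, Slc7a4 and Slc6a4. The share of all genes that DESeq2 called is not given here, and the edgeR shares are no background for this count. Slc1a1, again the epithelial glutamate carrier, had 3.49, 2.06, 1.76 and 3.37 CPM in KO spheroids and 7.51, 7.23, 6.99 and 4.16 CPM in WT spheroids. Every KO value lay under every WT value, but the edgeR log2 fold change of −1.28 ± 0.26 had an adjusted p of 0.0909 (DESeq2 0.000158). Slc7a8 had 1.01, 1.17, 2.26 and 1.36 CPM in KO and 5.07, 2.69, 3.22 and 2.78 CPM in WT (−1.24 ± 0.29, adjusted p = 0.123). Its highest value was in WT library 1, the library that lay apart, without which the log2 fold change was −0.996 (adjusted p = 0.252). Without KO library 3, whose value was the highest of the KO group, edgeR called it (−1.54, adjusted p = 0.0341), together with Slc38a1 (−0.39, adjusted p = 0.0386).

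Slc38a1 was well expressed, with 216, 221, 263 and 228 CPM in KO spheroids and 309.7, 285, 273 and 292 CPM in WT spheroids, and the difference was small and without overlap (−0.32 ± 0.08, adjusted p = 0.126; −0.29 without WT library 1). Slc7a4 had 7.20, 6.00, 7.34 and 6.18 CPM in KO and 11.4, 9.12, 9.55 and 8.39 CPM in WT (−0.52 ± 0.13, adjusted p = 0.129). It and Slc6a4, with 0.181 CPM on average in KO and 0.659 in WT, were named after their values were seen. Slc1a5 had 123, 136, 193 and 155 CPM in KO and 182, 172, 238 and 222 CPM in WT, with overlapping groups (−0.42 ± 0.15, adjusted p = 0.247). The carriers that were higher in KO crypts gave no rise here: the values were −0.18 ± 0.23 for Slc7a5, −0.05 ± 0.15 for Slc7a1, −0.26 ± 0.11 for Slc1a4 (named after its values were seen), −0.10 ± 0.12 for Slc38a2 and 0.19 ± 0.14 for Slc7a11, and none was called. None of the 30 amino acid response, 32 mTORC1 sensing, 15 partner, 14 peptidase or 11 glutathione genes tested passed in edgeR either. Their medians were −0.21, 0.02, 0.05, −0.55 and −0.05. Among those of smallest p were Sesn3 (0.74 ± 0.14) and Oplah (0.40 ± 0.08), both with an adjusted p of 0.0749, Eif2ak3 (0.40 ± 0.11, adjusted p = 0.15) and Lap3 (−0.22 ± 0.06, adjusted p = 0.17).

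**Figure D3:**
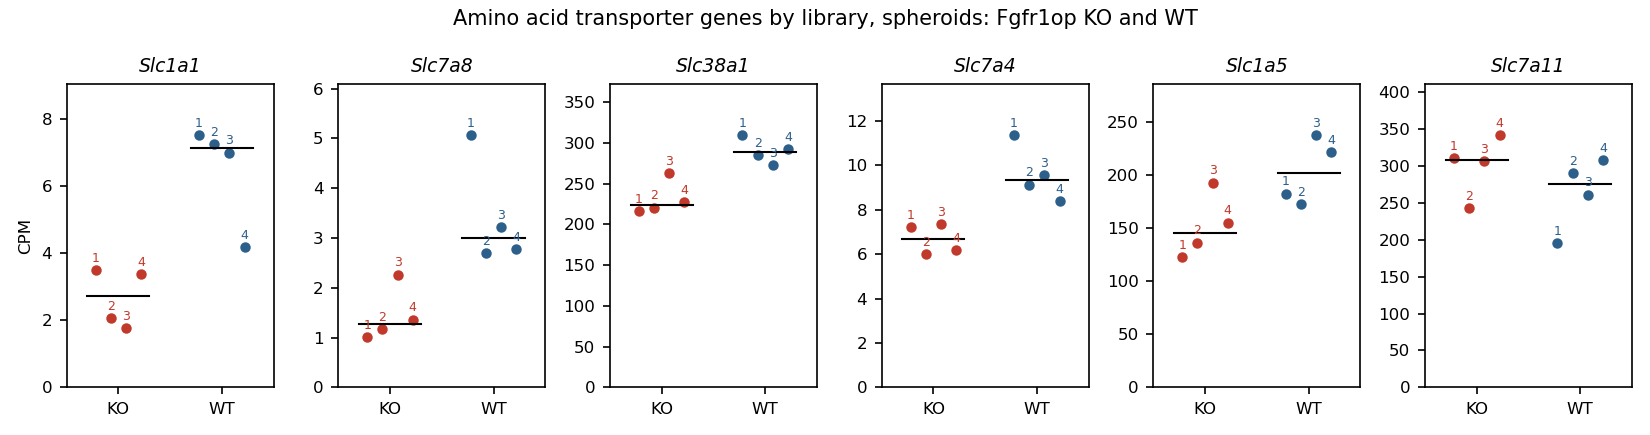
CPM of 6 carrier genes in 4 KO and 4 WT spheroid libraries, on linear axes from 0; each point is a library with its replicate number, and the line is the group median. Slc1a1, Slc7a8, Slc38a1 and Slc7a4 lie lower in every KO library, while Slc1a5 and Slc7a11 overlap between the groups.

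In Caco-2 cells many carriers differed by small amounts. Of 38 genes tested, 22 were called (57.9%), 8 higher and 14 lower in shFgfr1op cells. The background was high, at 31.9% of 18905 genes, 15.7% higher and 16.2% lower. The groups did not overlap for 25 of the 38 genes (65.8%), against 42.4% of all genes. Of the 38 genes, 4 (10.5%) were called with a change of 1 or more on the log2 scale, against 2.97% of all genes, and 26 (68.4%) had an unadjusted p below 0.05, against 39.8%. The median log2 fold change was −0.05 over the 38 genes.

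The lower genes included both chains of the apical cystine carrier. SLC3A1, the heavy chain of the cystine carrier, had 9.19, 8.84 and 9.54 CPM in shFgfr1op cells and 23.2, 22.6 and 23.7 CPM in scramble cells. The groups were far apart relative to their spread (log2 fold change −1.33 ± 0.08, adjusted p = 2.34e-18). Its light chain SLC7A9 had 5.98, 7.34 and 7.35 CPM in shFgfr1op and 9.65, 10.6 and 11.3 CPM in scramble (−0.61 ± 0.11, adjusted p = 1.17e-05). SLC6A19 had 0.866, 1.21 and 1.20 CPM in shFgfr1op and 2.30, 1.54 and 2.45 CPM in scramble (−0.93 ± 0.25, adjusted p = 0.00309). SLC6A6, the taurine carrier, had 69.2, 67.8 and 70.5 CPM in shFgfr1op and 106, 102 and 108 CPM in scramble (−0.61 ± 0.04, adjusted p = 8.52e-17). SLC1A1 had 76.0, 77.3 and 72.9 CPM in shFgfr1op and 102, 98.3 and 105 CPM in scramble (−0.43 ± 0.04, adjusted p = 5.14e-12). The carriers of large neutral amino acids SLC43A1 and SLC43A2 averaged 43.1 ± 2.33 and 79.1 ± 3.39 CPM in shFgfr1op and 62.9 ± 3.08 and 95.4 ± 1.73 CPM in scramble (SD, n = 3 each; −0.54 ± 0.05 and −0.27 ± 0.04). SLC36A1 was 50.7 to 52.4 CPM in shFgfr1op and 68.5 to 76.3 CPM in scramble (−0.47 ± 0.05), and SLC7A7 was 464 to 495 CPM in shFgfr1op and 565 to 589 CPM in scramble (−0.27 ± 0.03).

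Further lower calls were smaller or less stable. SLC7A8 averaged 30.2 CPM in shFgfr1op and 34.3 CPM in scramble (−0.19 ± 0.06, adjusted p = 0.012) and lost its call without scramble 3 or shFgfr1op 3. SLC38A11 was 0.607 to 0.761 CPM in shFgfr1op and 0.831 to 1.77 CPM in scramble (−0.96 ± 0.31, adjusted p = 0.0148), and its log2 fold change was −0.71 and not called without scramble 2. SLC7A5, the most abundant light chain in count, had 545, 579 and 522 CPM in shFgfr1op and 575, 593 and 574 CPM in scramble; the groups overlapped, and its call at −0.08 ± 0.03 (adjusted p = 0.0428) was lost without scramble 1, 2 or 3 or shFgfr1op 1 or 3. SLC7A2 and SLC38A3, named after their values were seen, completed the 14 at −0.30 ± 0.04 and −0.15 ± 0.05, and SLC38A3 lost its call without scramble 1 or shFgfr1op 2. SLC6A20 was 0.105 to 0.407 CPM in shFgfr1op and 0.479 to 0.724 CPM in scramble and missed the threshold (−1.24 ± 0.50, adjusted p = 0.0534).

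The higher genes were fewer. SLC1A2, a glutamate carrier known from astrocytes, had 5.70, 5.41 and 5.74 CPM in shFgfr1op cells and 1.31, 1.54 and 1.87 CPM in scramble cells (1.83 ± 0.17, adjusted p = 6.26e-12). SLC38A4, a sodium-coupled carrier known from liver, had 47.4, 39.6 and 47.9 CPM in shFgfr1op and 23.3, 26.4 and 27.1 CPM in scramble (0.81 ± 0.07, adjusted p = 4.21e-11). These 2 had no overlap and the firmest calls of the higher genes. SLC38A9, a lysosomal arginine sensor, averaged 41.5 ± 0.567 CPM in shFgfr1op and 34.8 ± 1.34 CPM in scramble (0.25 ± 0.05), and SLC6A8 averaged 53.1 ± 1.60 CPM in shFgfr1op and 45.1 ± 1.29 CPM in scramble (0.23 ± 0.05). SLC6A4 was 9.52 to 13.8 CPM in shFgfr1op and 8.44 to 9.17 CPM in scramble (0.39 ± 0.11), and without shFgfr1op 2 it was 0.24 and not called. SLC7A6 was 97.0 to 113 CPM in shFgfr1op and 92.5 to 99.5 CPM in scramble (0.15 ± 0.05), and lost its call without scramble 1, scramble 3 or shFgfr1op 2. SLC6A13 and SLC6A16 were at trace level, at most 0.904 and 1.18 CPM in shFgfr1op and 0.268 and 0.618 CPM in scramble (1.49 ± 0.50 and 1.04 ± 0.36). Each lost its call in 4 of 6 fits without 1 library, SLC6A13 without scramble 2 or 3 or shFgfr1op 1 or 3 and SLC6A16 without scramble 1 or 3 or shFgfr1op 2 or 3.

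Of the carriers that rose in KO crypts, SLC7A1, SLC1A5, SLC38A1, SLC38A2 and SLC7A11 were not called in Caco-2, and neither was SLC3A2. The log2 fold changes were 0.04 ± 0.04 for SLC7A1, 0.09 ± 0.04 for SLC1A5, −0.06 ± 0.03 for SLC38A1, 0.05 ± 0.03 for SLC38A2, −0.05 ± 0.03 for SLC3A2 and −0.09 ± 0.10 for SLC7A11, which had 10.0, 9.63 and 9.65 CPM in shFgfr1op and 9.62, 11.7 and 9.67 CPM in scramble. Enterocyte markers summed to 1486 to 1612 CPM in shFgfr1op cells and 2404 to 2444 CPM in scramble cells, with 1 higher and 7 lower of 10 tested. Stem cell markers summed to 331 to 347 CPM in shFgfr1op and 236 to 241 CPM in scramble, with 6 higher of 7 tested and OLFM4 at or near 0. Over all genes tested, 15.7% were called higher and 16.2% lower. The part of these markers in the lower level of the carriers was not tested. Against 31.9% of all genes called, of 12 peptidases tested 7 were lower and 0 higher (58.3%), with a median of −0.46, among them DPP4 at 188 ± 4.86 CPM in shFgfr1op and 303 ± 4.19 CPM in scramble (−0.69 ± 0.03), GGT1 (−0.75 ± 0.06) and XPNPEP2 (−1.60 ± 0.15). Of 29 amino acid response genes 4 were higher and 9 lower (44.8%), with a median of −0.06; MTHFD2 was higher (0.57 ± 0.05) and PSPH and GPT2 lower (−0.49 ± 0.04 and −0.26 ± 0.03). The mTORC1 sensing list had 5 higher and 4 lower of 33, or 27.3% (MTOR −0.33 ± 0.04, RHEB 0.29 ± 0.04, MLST8 0.21 ± 0.04). The partners had 1 higher and 6 lower of 15 (46.7%). The list of genes around glutathione had 1 higher and 5 lower of 11 (54.5%), with OPLAH at −0.34 ± 0.06.

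**Figure D4:**
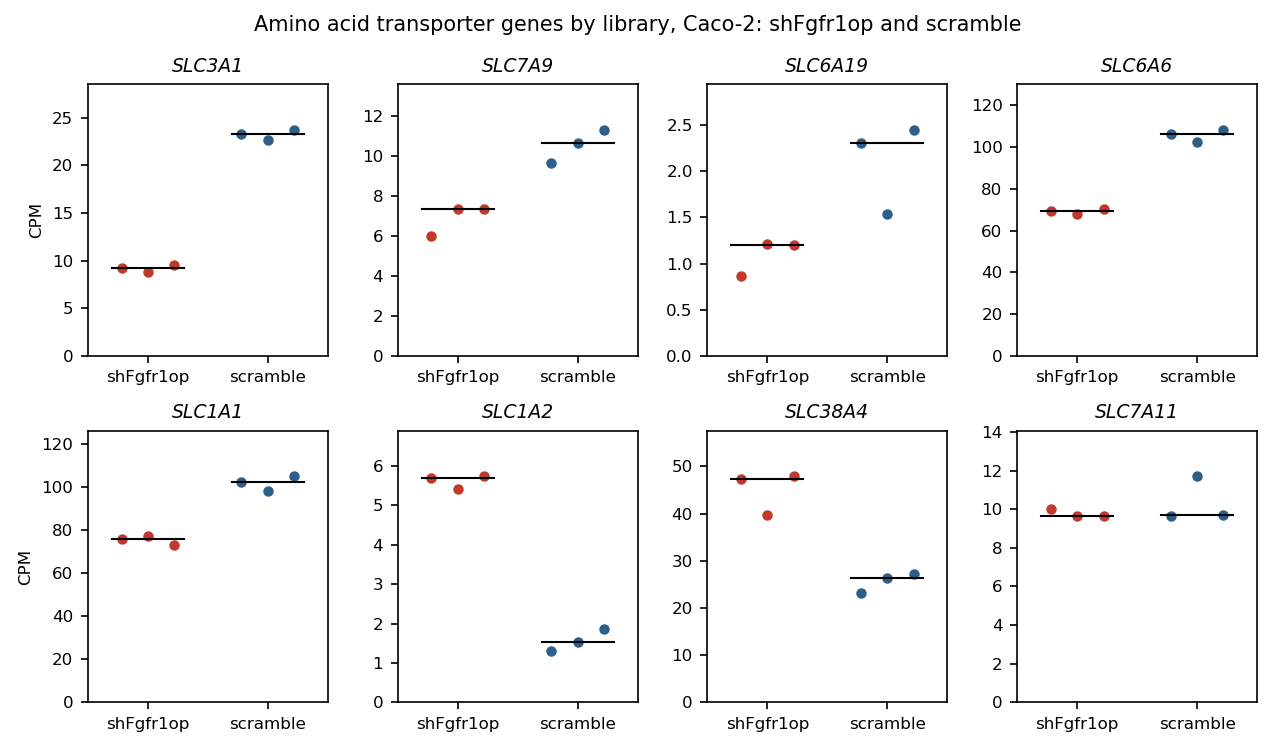
CPM of 8 carrier genes in 3 shFgfr1op and 3 scramble Caco-2 samples, on linear axes from 0; each point is a sample and the line is the group median. SLC3A1, SLC7A9, SLC6A19, SLC6A6 and SLC1A1 lie lower and SLC1A2 and SLC38A4 higher in every shFgfr1op sample, and SLC7A11 overlaps between the groups.

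Crypts and Caco-2 share no samples, so their calls were set side by side. Of 34 genes tested in both, 15 were called in crypts and 20 in Caco-2, and 8 in both, which is 53.3% of the crypt calls and 40.0% of the Caco-2 calls. Over all 10636 genes tested in both, 1275 were called in both, which is 42.8% of the crypt calls and 28.5% of the Caco-2 calls, and 685 of these (53.7%) had the same direction. Among the carriers the direction was the same for 5: SLC7A9, SLC7A7, SLC7A2 and SLC38A3 were lower and SLC7A6 was higher in the KO or knockdown group of each. It was opposite for 3: SLC1A2 and SLC38A4 were lower in KO crypts and higher in shFgfr1op cells, and SLC7A5 was higher in KO crypts and lower, by a small amount, in shFgfr1op cells. Without KO libraries 4, 5 and 6, none of the 5 genes of the same direction was called in crypts. SLC1A1 and SLC7A8, singled out after their values were seen, were lower in each comparison without overlap between the groups. The share of all genes that met this in all 3 comparisons is not given here. For SLC7A8 the highest KO crypt library had 109 CPM and the lowest WT crypt library 112 CPM. In Caco-2 the highest shFgfr1op sample of SLC7A8 had 31.4 CPM and the lowest scramble sample 32.6 CPM. For SLC1A1 the log2 fold change was −2.39 ± 0.87 in crypts, −1.28 ± 0.26 in spheroids and −0.43 ± 0.04 in Caco-2. For SLC7A8 it was −1.47 ± 0.58 in crypts, −1.24 ± 0.29 in spheroids and −0.19 ± 0.06 in Caco-2. For each gene only the Caco-2 change passed the threshold in edgeR with all libraries. Over all genes tested, the groups did not overlap for 10.6% in crypts, 8.56% in spheroids and 42.4% in Caco-2.

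**Figure D5:**
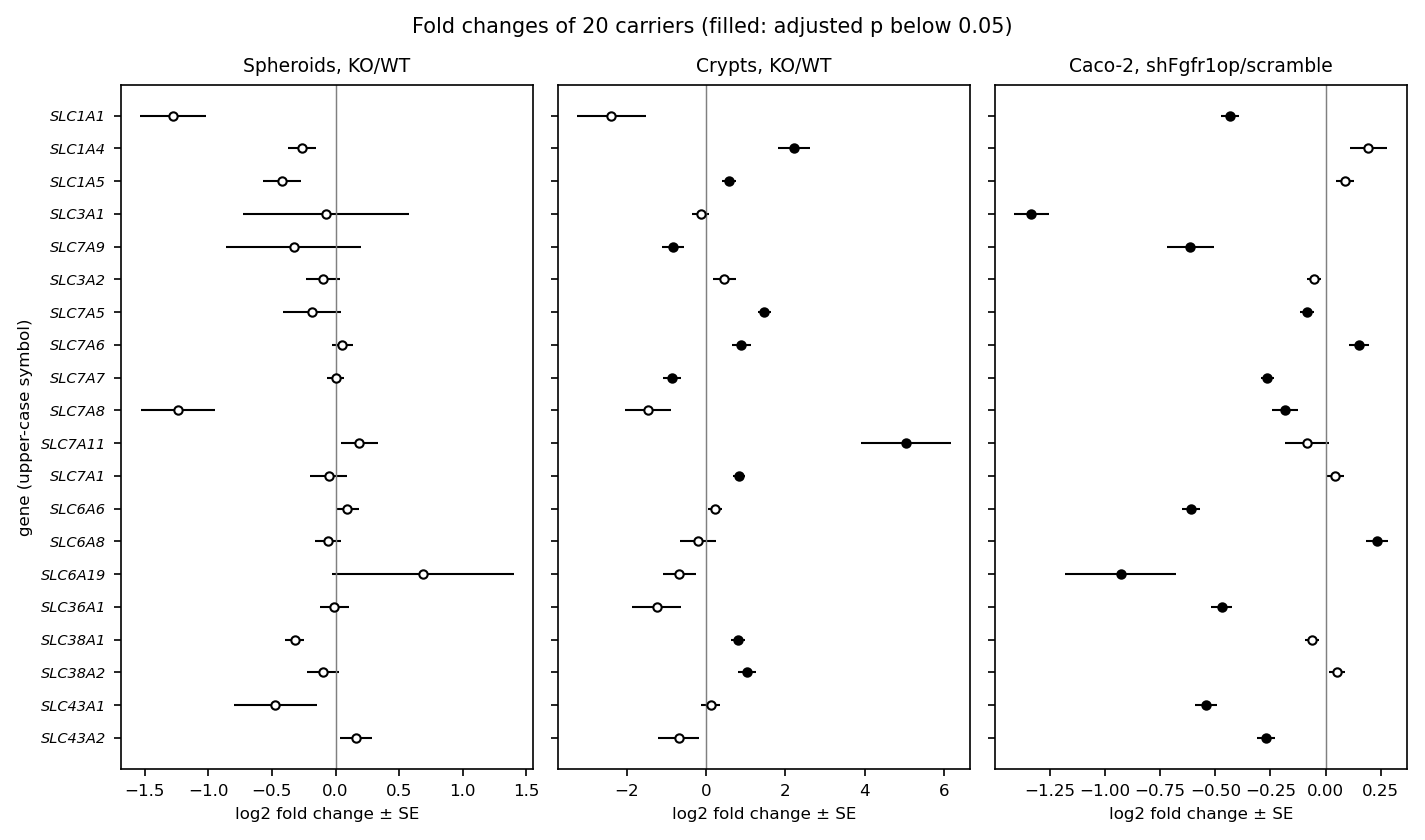
Log2 fold changes ± SE of 20 carriers in spheroids and crypts (KO over WT) and Caco-2 (shFgfr1op over scramble), named by upper-case symbol, with filled points for an adjusted p below 0.05; the horizontal scales differ between the panels. SLC1A1, SLC7A8 and SLC7A9 are among the genes left of 0 in all 3. The rises of SLC7A11, SLC1A4, SLC7A5, SLC7A1, SLC38A1 and SLC38A2 are filled points in the crypt panel. The difference between systems was not tested.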

How the data were processed

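The values are raw read counts per gene, deposited by the authors as a table each for spheroids, crypts and Caco-2 (26 libraries). STAR, DESeq2 and mm10 are named in the submitters' processing notes, without versions. Caco-2 genes carry human identifiers and no human build is stated, so no human coordinates are printed. The sources used here do not say how strand or reads with several matches were handled. Repeated entries with the same counts were removed (276, 276 and 116). Mouse positions and exon lengths come from GENCODE M21 (40254 identifiers found), and promoters from RefSeq (GRCm38.p6).

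Each table was fitted alone with edgeR 4.0.16 in R 4.3.3: filterByExpr, TMM scaling and the robust quasi-likelihood F test, with Benjamini-Hochberg adjustment over all genes tested and a call at an adjusted p below 0.05. The SE is the absolute log2 fold change over the square root of F. Levels are CPM on TMM-scaled totals; log2 fold changes come from the fit. After a mean CPM, ± is the SD over the group's libraries; after a log2 fold change it is the SE. The procedure was tested on simulated data. Changes were placed only in genes above a floor on mean count, and crypts were simulated without a split among the KO libraries. There edgeR called 45% of 2-fold changes in crypts, 85% in spheroids and 98% in Caco-2. Of 4-fold changes it called 99% in crypts and 100% in spheroids and in Caco-2. These shares do not carry over to genes at trace level or to genes split among the KO crypts. Columns were matched to samples by title or hairpin; crypt columns were matched to genotype only. Replicates of a group differed by a chi-square statistic of 26.7 to 97.4 per degree of freedom in spheroids, 66.7 to 997 in crypts and 3.98 to 9.58 in Caco-2, so each library was counted once. Members and gene lists were chosen with earlier results of these data known. Genes named are those called (above 16, the 8 largest rises and falls), 20 carriers known from the intestine, the 3 of smallest p with at least 2 CPM and, of each list, the 3 of smallest p; others are marked as named after their values were seen. Alternatives were limma voom 3.58.1 with sample weights, DESeq2 1.42.0, RLE size factors, other filters, a fold threshold, a replicate block and leaving out libraries.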

Additional observations from a re-analysis of the deposited data

Results flagged for a closer look

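In 4 groups of libraries, 1 library lay far from the others of its group by Dixon's criterion, which chance meets in about 1 of 20 groups; 34 groups were checked in spheroids and 50 in crypts. In WT spheroids, Slc1a1 was 4.16 CPM in library 4 and 6.99 to 7.51 CPM in the other 3. In WT crypts, Slc1a5 was 40.0 CPM in library 4 and 22.7 to 28.8 CPM in the other 5, and Slc7a11 was 2.11 CPM in library 4 and 0.998 to 1.346 CPM in the other 5. Slc6a14 was 1.17 CPM in WT crypt library 5 and 0.409 to 0.603 CPM in the other 5.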

How the results depend on the processing

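In crypts the count of 19 called carriers was 11 with a required change of 1 on the log2 scale and 34 with limma voom. It was 8 without KO libraries 4, 5 and 6, and 13 to 26 when 1 library was left out. DESeq2 gave 26. With the required change, 11% of all genes tested in crypts were called. In spheroids the count of 0 was 5 with DESeq2, 2 with no filter on low counts (Slc1a1, Slc7a8) and 0 to 2 when 1 library was left out. In Caco-2 the count of 22 was 4 with the fold threshold and 17 to 21 when 1 library was left out. For limma voom, DESeq2, no filter and 1 library left out, the share of all genes called is not given here. The carrier counts of these settings therefore cannot tell a change in the carriers from a looser or stricter call over all genes. Among the genes named by rule, all 31 changes of sign were in genes not called with all libraries; of the other members tested in crypts, Slc6a9 turned without KO libraries 4, 5 and 6 (−0.75). Without these the named genes that turned were Slc3a1 (0.047), Slc43a2 (0.063), Slc6a8 (0.41) and Slc6a14 (−1.22) in crypts. In spheroids they were, with voom, Slc36a1 (0.0078), Slc3a1 (0.056), Slc6a14 (−0.031), Slc7a1 (0.0013) and Slc7a9 (0.20), with the 1 CPM filter Slc7a7 (−0.0026), and with the replicate block Slc7a9 (0.016). When 1 library was left out, log2 fold changes ran from −0.076 to 0.054 for Slc36a1, −0.79 to 0.38 for Slc3a1, −0.17 to 0.25 for Slc6a14, −0.16 to 0.049 for Slc7a1, −0.039 to 0.030 for Slc7a7 and −0.59 to 0.46 for Slc7a9 in spheroids, and from −0.0078 to 0.092 for SLC7A1 and −0.13 to 0.016 for SLC7A11 in Caco-2. The cause was not tested. The replicate numbers paired neither spheroids (correlation of same-numbered deviations −0.0295 to 0.0982) nor Caco-2 (0.0033 to 0.0437); with the replicate as a block the counts were 0 and 22. No paired analysis was possible in crypts because the columns carry no replicate number of the labels. Depth limits the genes under 1 CPM, whose calls rest on few reads.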
